A study of Mus musculus with 36 samples.

Results

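Interferon-stimulated genes were followed through brown adipocyte differentiation as a set of 9 named genes, Ifit1, Ifit2, Ifit3, Isg15, Irf7, Stat2, Oasl2, Rsad2 and Bst2, out of 55536 genes counted in each of 36 RNA-seq libraries. The genes were listed by name. The 8 members other than Rsad2 passed the filter on low counts and were tested among 16723 genes. Oasl2 passed it mainly through its day 0 libraries, which held 62 or more counts each, against as few as 3 counts at day 6 and 0 at day 2. Its fall from day 0 is therefore not independent of the filter, also where it is counted among the 8. Libraries came from immortal mouse brown pre-adipocytes in which Rxra, the gene of the nuclear receptor RXRα, had been disrupted with CRISPR/Cas9. Both monoclonal Rxra-/- lines, clone 48 and clone 66, carried a retroviral vector with hygromycin resistance that re-expressed either wild type mouse Rxra (RxraWT, here WT) or a mutant whose serine at position 22 is replaced by alanine (RxraSA, here SA). Each of the 4 lines was sampled at day 0, day 2 and day 6 with 3 replicates, which makes 12 libraries a day, 6 per genotype and 6 per clone. Day 0 cells were confluent pre-adipocytes in medium with insulin and the thyroid hormone T3. Dexamethasone, isobutylmethylxanthine and indomethacin were added for the first 2 days, and the cells then returned to insulin and T3 until day 6. No interferon is named in the culture protocol, no virus other than the vector, and no line without a vector was sequenced here, so all groups share the disrupted Rxra locus, the vector and the selection. Each clone is 1 line, and all clone 48 libraries were in one library pool and all clone 66 libraries in the other, so a difference between clones and a difference between pools cannot be told apart.

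Type I interferons are secreted proteins that bind a receptor made of IFNAR1 and IFNAR2. The receptor's kinases phosphorylate STAT proteins, among them STAT2, which joins IRF9 in a complex that binds the interferon-stimulated response element (ISRE) in the promoters of its target genes. Many of these targets are also transcribed at a low level without added interferon. Among the members, STAT2 and IRF7 are transcription factors of the pathway itself, the IFIT proteins bind foreign RNA and restrain its translation, ISG15 is a ubiquitin-like protein that is coupled to other proteins, OASL2 belongs to the oligoadenylate synthetase family, RSAD2 (viperin) makes a nucleotide that stops viral RNA synthesis, and BST2 (tetherin) holds budding virus particles at the cell surface.

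Ifit1, Ifit2 and Ifit3 lie close together on mouse chromosome 19 (GRCm38, GENCODE M21), at chr19:34640871-34650009, chr19:34550694-34576419 and chr19:34583531-34588731, all on the plus strand. The other 6 genes lie on 6 chromosomes, Isg15 at chr4:156199424-156200818, Irf7 at chr7:141262706-141266481, Stat2 at chr10:128270559-128292849, Oasl2 at chr5:114896936-114912234, Rsad2 at chr12:26442746-26456452 and Bst2 at chr8:71534255-71537456. Read pairs were assigned without regard to strand over all exons of a gene. Irf7 shared 45 of its 3776 exonic bases with Phrf1 on the opposite strand, and the other 8 members shared none with another gene. Ifit1, Ifit3 and Oasl2 have close relatives (Ifit1bl1, Ifit1bl2, Ifit3b and Oasl1), and pairs that mapped to several places were not counted, so how counts divide between these relatives is uncertain.

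The promoters of the members were searched for the core of the ISRE, GAAANNGAAA on either strand, within 250 bases before and 50 bases after the RefSeq start site (GRCm38.p6, 300 bases). The core was present in 6 of 9 members (66.7%), against 1079 of 27025 genes in the RefSeq promoter table (3.99%). It occurred 2 or more times in 4 of 9 members and in 72 genes of the table (0.266%). These 4 promoters are shown because they hold the repeated cores of the set. The sequences run 5′ to 3′ on the strand of the gene, and capitals mark each match to the core or its reverse complement. They cover chr19:34640639-34640938 for Ifit1, chr19:34583279-34583578 for Ifit3, chr4:156200769-156201068 on the minus strand for Isg15 and chr8:71537423-71537722 on the minus strand for Bst2.
Ifit1: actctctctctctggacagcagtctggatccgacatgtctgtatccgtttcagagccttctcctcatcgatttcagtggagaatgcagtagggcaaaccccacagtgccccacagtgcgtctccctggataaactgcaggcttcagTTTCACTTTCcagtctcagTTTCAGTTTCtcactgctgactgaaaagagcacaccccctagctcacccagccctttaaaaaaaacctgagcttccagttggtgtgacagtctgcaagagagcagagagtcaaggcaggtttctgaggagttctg
Ifit3: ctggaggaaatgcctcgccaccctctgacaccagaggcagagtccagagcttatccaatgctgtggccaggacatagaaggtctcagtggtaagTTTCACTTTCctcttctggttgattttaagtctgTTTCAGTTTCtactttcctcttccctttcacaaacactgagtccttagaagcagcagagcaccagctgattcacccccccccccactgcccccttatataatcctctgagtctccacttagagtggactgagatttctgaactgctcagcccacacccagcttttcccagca
Isg15: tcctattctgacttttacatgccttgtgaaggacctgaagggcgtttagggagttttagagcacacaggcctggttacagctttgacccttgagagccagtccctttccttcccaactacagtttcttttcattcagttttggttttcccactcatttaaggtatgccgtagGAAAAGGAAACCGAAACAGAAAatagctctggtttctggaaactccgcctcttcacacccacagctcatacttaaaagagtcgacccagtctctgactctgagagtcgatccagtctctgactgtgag
Bst2: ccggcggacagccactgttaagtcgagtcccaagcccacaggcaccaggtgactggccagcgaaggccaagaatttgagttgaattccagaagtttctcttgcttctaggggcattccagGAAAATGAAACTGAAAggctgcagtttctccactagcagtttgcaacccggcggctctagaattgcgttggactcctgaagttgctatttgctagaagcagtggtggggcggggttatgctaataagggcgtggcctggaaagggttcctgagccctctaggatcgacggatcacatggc
Ifit1 and Ifit3 carried the same pair of matches, TTTCACTTTC and TTTCAGTTTC, whose first bases lay at positions -104 and -85 in Ifit1 and at -156 and -122 in Ifit3, counted from the start site as 0. Isg15 had 3 matches that overlapped one another, the first at position -78. Bst2 had 2 overlapping matches, the first at position -130, and a match to the STAT site TTCNNNGAA overlapped the first of them only. Stat2 held 1 match, TTTCAGTTTC, at position -222 and Rsad2 held 1, TTTCATTTTC, at position -120. No match was present in the windows of Ifit2 (2 start sites), Irf7 or Oasl2. The STAT site occurred in Ifit2 and Bst2, 2 of 9 members, against 9.55% of genes in the table. In the wider list of 125 interferon pathway genes described below, 35 of the 99 genes with a promoter in the table held the core (35.4%). A match describes letters in the window and was not tested for binding.

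Total counts ranged from 11351078 to 24349263 a library with a median of 18338726, and the library with the lowest total was clone 48 SA at day 0, replicate 1. Rxra, counted from the disrupted locus and the vector together, had a median of 166 counts per 1000000 (CPM) in WT and 170 CPM in SA libraries at day 0, with overlapping ranges, which does not tell the mutant from the wild type transcript. The pre-adipocyte markers Pdgfra and Pdgfrb had medians of 88.2 and 170 CPM at day 0, whereas Dlk1 and Thy1 did not exceed 6 counts in a library. The genes listed as brown adipocyte markers had a median summed level of 134 CPM at day 0, 3280 CPM at day 2 and 6970 CPM at day 6. General adipocyte genes led it, with day 6 medians of 3150 CPM for Fabp4 and 2110 CPM for Adipoq. Ucp1 did not exceed 5 counts in any library, Cidea had a day 6 median of 0.519 CPM, and Ppargc1a went from 13.6 CPM at day 0 to 22.9 CPM at day 6. The sum therefore describes adipocyte genes and does not show brown identity. The pan-leukocyte gene Ptprc, the macrophage gene Adgre1 and the T cell gene Cd3e had at most 1 count in any library. The submitters describe the replicates as technical in the design text while the methods call them independent, so p-values measure the spread between these libraries.

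At day 0 all 9 genes were detected, and their levels covered a wide range. Ifit2 was the most abundant, with a lowest value of 191 CPM, a median of 235 CPM and a highest value of 294 CPM over 12 libraries. The medians of the other members were 50.6 CPM for Ifit1, 37.0 CPM for Ifit3, 21.4 CPM for Stat2, 18.1 CPM for Bst2, 12.9 CPM for Irf7, 9.42 CPM for Isg15, 6.83 CPM for Oasl2 and 0.265 CPM for Rsad2. Per length of exon, the median level at day 0 was 60.0 counts per kilobase of exon and 1000000 counts (RPKM) for Ifit2, which was above the next gene in 12 of 12 libraries. Ifit3, Bst2 and Ifit1 followed at 21.2, 20.1 and 19.0 RPKM, and these 3 neighbours did not separate, since Ifit3 was above Bst2 in 5 of 12 libraries and Bst2 above Ifit1 in 7 of 12. Isg15 was next at 12.5 RPKM and below Ifit1 in 9 of 12 libraries, Stat2 and Irf7 were close at 3.61 and 3.41 RPKM, and Oasl2 and Rsad2 were lowest at 1.07 and 0.0612 RPKM.

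**Figure D1:**
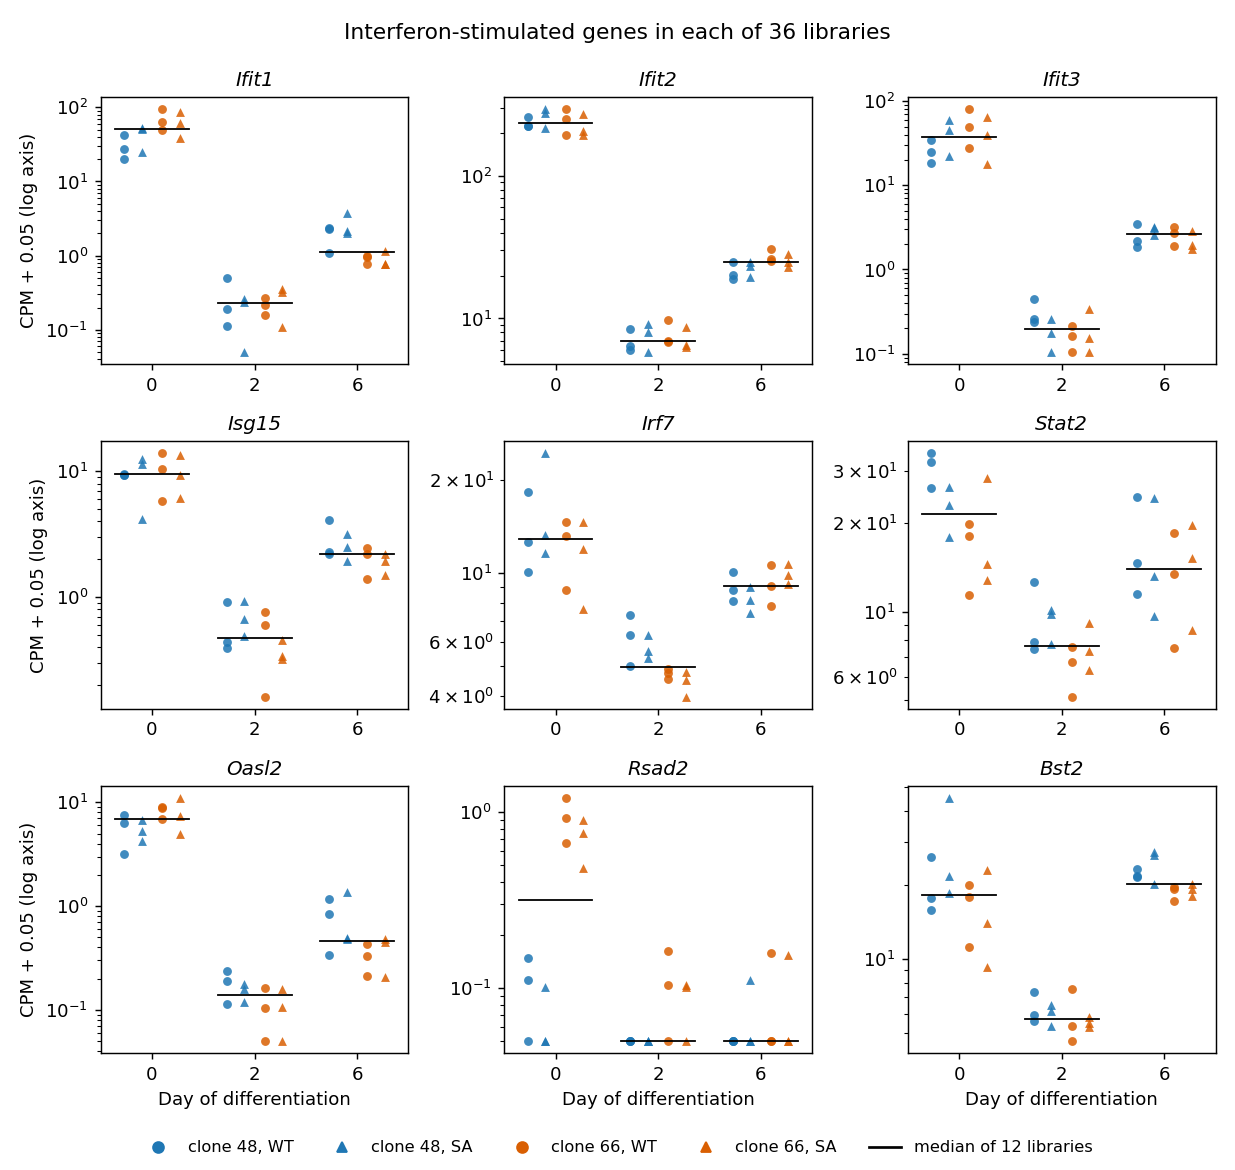
Level of each interferon-stimulated gene in every library by day of differentiation (CPM plus 0.05 on a log axis, with its own scale in each panel). Blue is clone 48, orange clone 66, circles are WT, triangles SA, and black lines are medians of 12 libraries. The day 2 points lie below the day 0 points in every panel but those of Stat2 and Rsad2, where they overlap, and Bst2 alone has a day 6 median (20.2 CPM) above its day 0 median (18.1 CPM).

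The levels fell steeply between day 0 and day 2. All 8 tested members were lower at day 2 at an adjusted p below 0.05 (edgeR quasi-likelihood test, Benjamini-Hochberg adjustment over 16723 genes), against 37.5% of all tested genes that were lower and 35.8% that were higher. The median log2 fold change of the 8 genes was -4.66, compared with -0.0152 over all tested genes. Each tested member was lower at day 2 in 12 of 12 comparisons of libraries with the same clone, genotype and replicate number. This count is fixed for a member whose libraries do not overlap between the days, and same-numbered WT and SA libraries are not independent. Among the tested members, the day 0 and day 2 libraries overlapped for Stat2 alone. The share of all tested genes without such overlap is not given, so this separation is not read as particular to the members. Scaling by library size alone moved the median of all genes to -0.274 and the split of all calls from 5989 higher and 6270 lower to 4190 higher and 8264 lower, and the 8 members were called lower under it too. In bulk RNA, fewer cells with a transcript and less transcript per cell cannot be told apart.

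Ifit1 and Ifit3 showed the greatest drop. Ifit1 ranged from 20.2 to 95.4 CPM at day 0 and from 0 to 0.455 CPM at day 2, with a median of 0.179 CPM. Its log2 fold change was -8.08 (SE 0.379, adjusted p = 1.15e-19), and only 4 of 16723 genes had a more negative estimate. Ifit3 ranged from 17.9 to 81.1 CPM at day 0 and from 0.0542 to 0.390 CPM at day 2, and its log2 fold change was -7.95 (SE 0.321, adjusted p = 1.68e-21). The highest day 2 library of either gene stayed far below its lowest day 0 library. Summed over 12 libraries, Ifit1 had 12197 counts at day 0 and 37 at day 2, which puts its day 2 level at 0.352% of day 0 (0.248 to 0.486%, exact 95% interval for counting error only), and Ifit3 was at 0.394% of day 0 (0.27 to 0.557%).

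Ifit2, the IFIT gene without a core match in its promoter windows, fell from a median of 235 to 6.86 CPM, and its day 2 libraries ranged from 5.76 to 9.68 CPM. The log2 fold change was -5.03 with the smallest error of the set (SE 0.113, adjusted p = 1.59e-28). At day 2 it stood at 3.12% of its day 0 level, with 83 or more counts in each library. Oasl2 fell from 6.83 to 0.0889 CPM in the median, with 17 counts over all 12 libraries at day 2, and its log2 fold change was -6.23 (SE 0.340, adjusted p = 8.02e-18). Isg15 fell from 9.42 CPM, with a range of 4.13 to 13.9 CPM, to 0.427 CPM, with a range of 0.112 to 0.882 CPM. Its log2 fold change was -4.29 (SE 0.235, adjusted p = 8.63e-18).

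The 2 transcription factors and Bst2 fell less. Irf7, which drives transcription of interferon genes, had a median of 12.9 CPM at day 0 and 4.90 CPM at day 2 (log2 fold change -1.36, SE 0.132, adjusted p = 3.00e-11). Stat2 fell from a median of 21.4 to 7.61 CPM (log2 fold change -1.43, SE 0.179, adjusted p = 9.41e-09), and its highest day 2 library, at 12.5 CPM, lay above its lowest day 0 library, at 11.4 CPM. Bst2 fell from 18.1 to 5.64 CPM (log2 fold change -1.74, SE 0.148, adjusted p = 1.15e-12). At day 2 these genes stood at 39.7% (Irf7), 36.7% (Stat2) and 30.3% (Bst2) of day 0, and Bst2 had the highest level per length, 6.24 RPKM, above Ifit2 at 1.75 RPKM in 12 of 12 libraries. Rsad2 was too low to test. It had 103 counts over the 12 day 0 libraries, 5 over those of day 2 and 5 over those of day 6, and in a fit without a filter on low counts its log2 fold change from day 0 to day 2 was -3.72 (SE 0.466, adjusted p = 4.83e-10).

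Markers of other cells moved as well. The 10 leukocyte markers had a summed level of 13.2 to 21.1 CPM at day 0, 4.74 to 7.22 CPM at day 2 and 9.10 to 15.0 CPM at day 6, and 3, 2 and 2 of the 10 had a median of 1 CPM or more at day 0, day 2 and day 6. The medians of Cd14 were 7.65, 1.53 and 3.10 CPM and those of Cd68 were 6.86, 3.80 and 7.91 CPM, whereas Adgre1, Cd3e, Itgam and Ptprc were at 0 or at 1 count. The 6 pre-adipocyte markers went from a summed median of 350 CPM at day 0 to 67.5 CPM at day 2 and 85.8 CPM at day 6. The part of cell composition or cell state in the fall of the interferon-stimulated genes was not tested.

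Between day 2 and day 6 all 8 tested members rose, against 31.9% of tested genes that rose and 30.1% that fell. The median log2 fold change was 2.01, compared with 0.0122 over all genes. Ifit3 rose most, from a median of 0.146 to 2.58 CPM (log2 fold change 3.96, SE 0.345, adjusted p = 4.15e-12), followed by Ifit1, from 0.179 to 1.08 CPM (3.02, SE 0.428, adjusted p = 1.89e-07). The log2 fold changes of the other members were 2.51 for Oasl2 (SE 0.446), 2.19 for Isg15 (SE 0.243), 1.84 for Bst2 (SE 0.148), 1.70 for Ifit2 (SE 0.101), 0.90 for Stat2 (SE 0.178) and 0.81 for Irf7 (SE 0.132). Between libraries of the same clone, genotype and replicate number, each of the 8 rose in 12 of 12 comparisons apart from Stat2, which rose in 11. The day 2 and day 6 libraries overlapped only for Stat2 and Oasl2, and no share of non-overlapping genes over all genes is given beside this.

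The recovery was partial for most of the set. From day 0 to day 6, 7 of the 8 tested members were lower, against 35.4% of all tested genes lower and 32.9% higher. Ifit1 reached 2.88% of its day 0 level at day 6 (log2 fold change -5.07, SE 0.300, adjusted p = 8.86e-17), Ifit3 6.27% (-4.00, SE 0.234), Oasl2 7.43% (-3.72, SE 0.259), Ifit2 10.2% (-3.33, SE 0.103) and Isg15 22.8% (-2.10, SE 0.196). For these 5 genes the highest day 6 library lay below the lowest day 0 library, a separation whose share over all genes is not given. Irf7 and Stat2 came back to 69.7 and 68.5% of day 0, with log2 fold changes of -0.55 (SE 0.129, adjusted p = 0.000322) and -0.53 (SE 0.174, adjusted p = 0.0077), and their libraries overlapped between the days. The Stat2 call was lost without clone 48 replicate 1 (-0.37, adjusted p = 0.0777), without clone 48 replicate 2 (-0.40, adjusted p = 0.0837) and in clone 66 alone (-0.31, adjusted p = 0.321), and that of Irf7 in clone 66 alone (-0.27, adjusted p = 0.150). Bst2 was the exception, at 109% of day 0 (105 to 114%), and its log2 fold change of 0.10 did not pass the test (SE 0.140, adjusted p = 0.529), although it did without clone 48 replicate 2 (0.32, adjusted p = 0.0273), and its direction turned with scaling by library size alone (-0.09, adjusted p = 0.571), without clone 66 replicate 3 (-0.03) and in clone 48 alone (-0.01). Scaling by library size alone moved the median of all genes to -0.222 and the split of all calls from 5505 higher and 5919 lower to 4155 higher and 7758 lower, with the same 7 members lower.

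**Figure D2:**
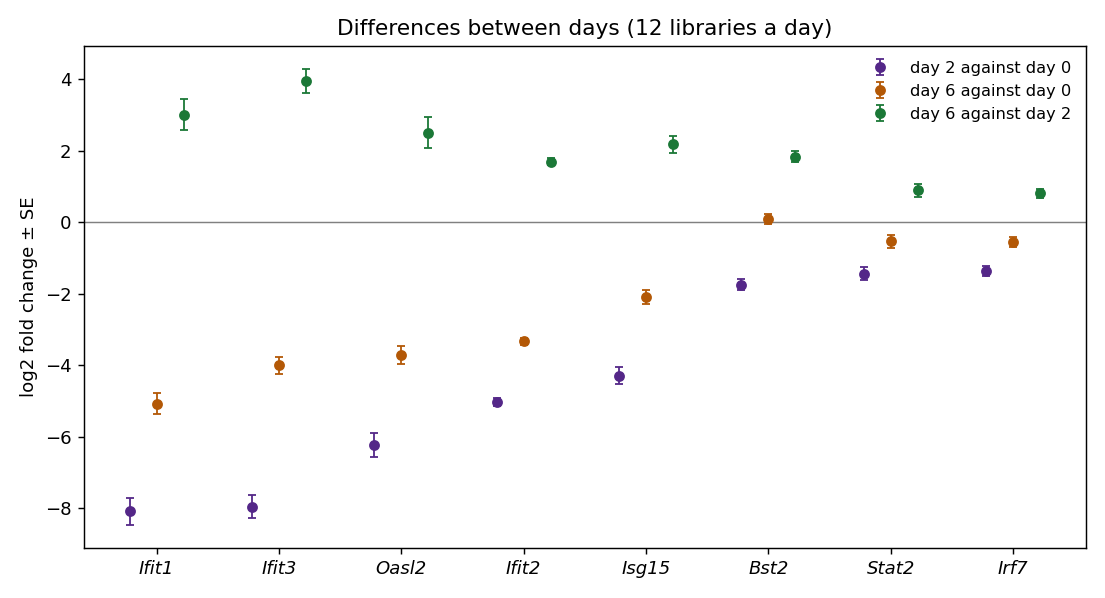
Log2 fold change of the 8 tested interferon-stimulated genes between days, with standard errors (y axis, log2 scale, 12 libraries a day), ordered by the change from day 0 to day 2. Every day 2 against day 0 estimate (purple) is below 0, every day 6 against day 2 estimate (green) is above 0, and among the day 6 against day 0 estimates (orange) Bst2 lies at 0.10 and the others below 0.

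The order of the genes by level per length thus differed between the days. At day 6 Bst2 led at 22.4 RPKM, above Ifit2 at 6.28 RPKM in 12 of 12 libraries, and Isg15 came next at 2.84 RPKM, below Ifit2 in 11 of 12. Irf7, at 2.39 RPKM, and Stat2, at 2.35 RPKM, did not separate, with Irf7 above Stat2 in 4 of 12 libraries. Ifit3 and Ifit1, which had stood beside Bst2 at day 0, were at 1.48 and 0.406 RPKM, and Ifit3 was above Ifit1 in 12 of 12 libraries. Oasl2 was at 0.0652 RPKM, and Rsad2 had a median of 0.

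The wider pathway was read from a list of 125 further genes in 11 roles, of which 95 were tested. From day 0 to day 2, 77 of these 95 fell and 12 rose, with a median log2 fold change of -1.79. From day 0 to day 6, 54 were lower and 27 higher (median -0.507), and between day 2 and day 6, 70 rose and 9 fell (median 1.25). These counts describe the list and are read beside the shares over all genes given above. They include genes that, like Oasl2, passed the filter on low counts mainly through day 0.

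The interferon genes themselves were at the limit of detection. None of the 11 ligand genes was tested, and none exceeded 4 counts in a library. Ifnb1, which encodes interferon beta, had 8 counts over the 12 libraries at day 0, 0 at day 2 and 1 at day 6. Both chains of the type I receptor were expressed on all days. Ifnar1 had a median of 117 CPM at day 0, 89.0 CPM at day 2 and 90.4 CPM at day 6, and its log2 fold change to day 2 was -0.36 (SE 0.0437, adjusted p = 4.68e-09). Ifnar2 went from 33.9 to 15.5 and then 29.5 CPM, with a log2 fold change of -1.02 from day 0 to day 2 (SE 0.0941), and of -0.12 from day 0 to day 6 that did not pass the test (SE 0.0922, adjusted p = 0.254). Of the other receptor chains Ifngr1, a chain of the interferon gamma receptor, which rose by 2.79 on the log2 scale (SE 0.0903), and Il10rb, which fell by 1.22 (SE 0.0996).

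Irf9, the partner of STAT2, fell with Stat2. It went from a median of 53.0 CPM at day 0 to 10.3 CPM at day 2 (log2 fold change -2.39, SE 0.125, adjusted p = 2.66e-18). At day 6 its median was 22.4 CPM, and it was lower than at day 0 (-1.32, SE 0.12). The receptor kinase Tyk2 fell by 1.07 at day 2 (SE 0.0583) and was lower at day 6 than at day 0 (-0.51, SE 0.0575).

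Among the factors and kinases that induce interferon genes, 4 of 6 tested fell and 1 rose at day 2. Over all tested genes, 37.5% were lower and 35.8% higher at day 2. Irf5 fell by 4.54 (SE 0.229) and was lower at day 6 too (-5.09, SE 0.237), Ikbke fell by 2.28 (SE 0.204) and Irf1 by 0.73 (SE 0.0506). Of 10 tested sensors of foreign RNA or DNA and their adaptors, 7 fell and 2 rose at day 2. The adaptor Tmem173 (STING) fell by 4.30 on the log2 scale (SE 0.167), the RNA sensor Ifih1 (MDA5) by 3.79 (SE 0.287) and Tlr3, a receptor of double-stranded RNA, by 2.44 (SE 0.342). All of these 3 were also lower at day 6 than at day 0, with log2 fold changes of -2.82, -1.73 and -1.02.

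Antiviral effectors were the largest group, and 37 of 43 fell at day 2 while 3 rose (median -2.15), against 37.5% of all tested genes lower. The largest changes were those of Ifit3b (-7.20, SE 0.453), Oasl1 (-6.13, SE 0.568) and Ifit1bl2 (-5.73), relatives of the members whose counts cannot be fully separated from theirs. Oasl1 and Ifit1bl2 had 3 counts each over the 12 day 2 libraries and passed the filter on low counts through day 0. Their fall is thus not independent of the filter, and the count of 37 includes them. At day 6, 29 of the 43 were lower than at day 0 and 7 higher, against 35.4 and 32.9% of all tested genes. The guanylate-binding and immunity-related GTPases, which act on vacuoles that hold pathogens, fell in 7 of 7 cases, led by Gbp7 (-5.06, SE 0.317), Gbp3 (-4.76, SE 0.322) and Iigp1 (-3.21, SE 0.356). By day 6, Gbp3 was no longer different from day 0 by the test (-0.36, SE 0.233, adjusted p = 0.170).

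The enzymes that couple ISG15 to proteins or remove it moved as Isg15 itself did. Of these, 4 of 4 fell at day 2, rose from day 2 to day 6 and stayed lower at day 6 than at day 0. The shares of all tested genes with each of these calls were 37.5, 31.9 and 35.4%. Usp18, the protease that removes ISG15, went from a median of 8.58 to 0.509 and then 1.85 CPM (day 0 to day 2 -3.94, SE 0.235, adjusted p = 9.17e-17). Uba7, the activating enzyme, fell by 3.84 (SE 0.153) and Ube2l6, the conjugating enzyme, by 2.78 (SE 0.116). Both tested chemokines fell, Cxcl10 from 3.86 to 0.336 CPM (-3.24, SE 0.241, adjusted p = 3.72e-14) with 0.945 CPM at day 6, and Ccl5 by 3.13 (SE 0.323). Of 4 tested negative regulators, Socs1 (-2.44, SE 0.148) and Ptpn6 (-1.03, SE 0.177) fell at day 2 and 1 rose.

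Antigen presentation genes were higher at day 6 than at day 0. From day 0 to day 6, 9 of 9 genes rose, against 32.9% of all tested genes, with a median log2 fold change of 2.14. The class I heavy chain genes H2-K1 and H2-D1 rose by 4.57 (SE 0.154) and 3.19 (SE 0.130), and the immunoproteasome subunit Psmb9 by 2.61. At day 2, 3 of the 9 were higher and 6 lower, and Psmb8, another immunoproteasome subunit, was among those that fell first (-1.63, SE 0.331) and rose later (4.16 from day 2 to day 6, SE 0.325). Of the 8 tested members of the 9-gene set, Bst2 alone was not called lower at day 6.

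**Figure D3:**
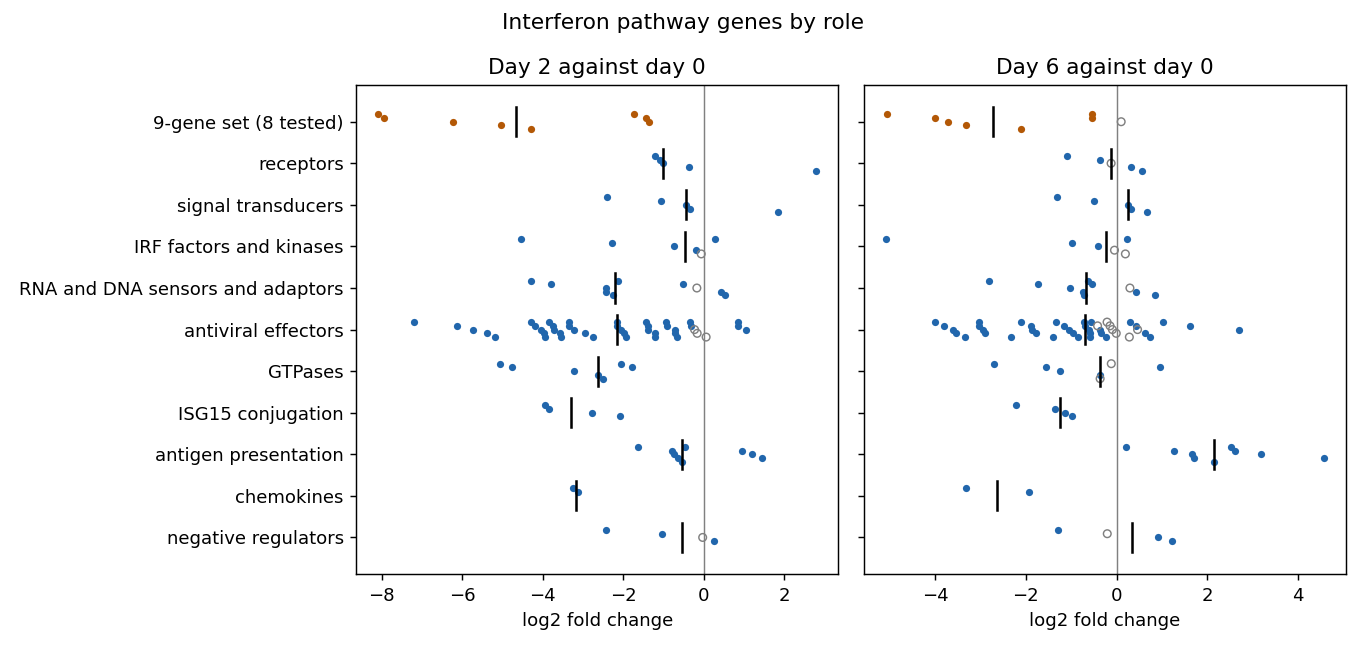
Log2 fold change of each tested gene (points), with the 8 tested members of the 9-gene set in orange and of the interferon pathway list by role in blue, at day 2 and at day 6 against day 0 (x axis, log2 scale). Open grey points did not pass the test and black bars are medians. The median of the set is -4.66 at day 2, and antigen presentation is the only role with all its points above 0 at day 6.

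Whether the serine at position 22 of RXRα bears on these genes was asked by comparing SA with WT at each day. None of the 8 tested members differed at day 0, day 2 or day 6, which is also the share over all genes, 0% at each day. No member had an unadjusted p below 0.05 on any day, compared with 139, 162 and 125 of 16723 genes at day 0, day 2 and day 6, and DESeq2 called 0 members as well. At day 0 the log2 fold changes lay between -0.165 (Stat2) and 0.249 (Bst2), with standard errors of 0.132 to 0.335. At day 2 they lay between -0.399 (Ifit3) and 0.109 (Stat2), and there the standard errors reached 0.890, with at most 7 counts of Ifit1, Ifit3 or Oasl2 in a library. At day 6 they lay between -0.147 (Isg15) and 0.320 (Ifit1), with standard errors of 0.136 to 0.445.

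The levels of both genotypes lay side by side. Ifit2 at day 0 had a lowest value of 191 CPM, a median of 235 CPM and a highest value of 294 CPM in the 6 WT libraries, and of 191, 244 and 294 CPM in the 6 SA libraries. Ifit1 at day 6 ranged from 0.734 to 2.30 CPM in WT with a median of 0.992 CPM, and from 0.713 to 3.69 CPM in SA with a median of 1.53 CPM. The genotypes overlapped for all 8 tested members on all 3 days. WT and SA libraries with the same number deviated together, and with the replicate number as a block within each day the standard error of Ifit1 at day 0 fell to 0.146 (log2 fold change 0.145, adjusted p = 0.822). This block brought no member past the threshold. A difference beyond 1 standard error could also go undetected here. Bst2 at day 0, at 0.249 with a standard error of 0.199, had an unadjusted p of 0.219 (edgeR quasi-likelihood test).

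No interaction of genotype and time was called, with 0 of 8 members and 0% of all genes from day 0 to day 2, from day 0 to day 6 and from day 2 to day 6 (0 members and 144, 128 and 153 genes at an unadjusted p below 0.05). Clone by genotype was likewise called in 0 members and 0% of genes at each day, with 0 members and 283, 214 and 200 genes at an unadjusted p below 0.05. DESeq2 also called 0 members in each of these tests. The errors were widest where day 2 entered, and the interaction of genotype and time from day 0 to day 2 for Ifit3 was -0.51 with a standard error of 0.803.

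**Figure D4:**
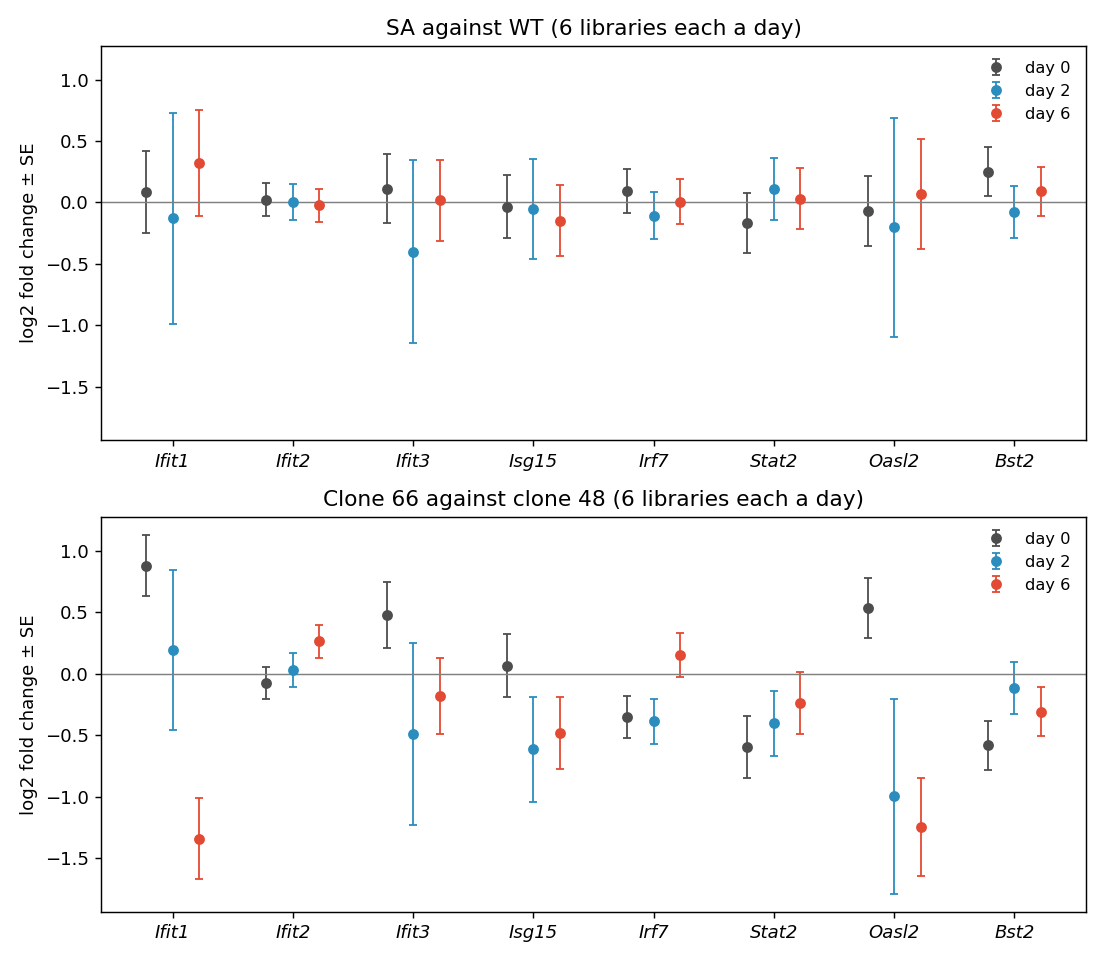
Log2 fold change with standard error (y axis, log2 scale) of SA against WT in the upper panel and of clone 66 against clone 48 in the lower panel, for the 8 tested genes at day 0 (grey), day 2 (blue) and day 6 (red). No estimate passes the test in the upper panel, and in the lower panel Ifit1 goes from 0.88 at day 0 to -1.34 at day 6.

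Clone 66 was compared with clone 48 at each day. At day 0, Ifit1 was higher in clone 66 and Bst2 lower, which makes 1 of 8 tested members in each direction against 12.6% of tested genes higher and 11.1% lower. This count is near the shares over all genes and is not read as particular to the members. Ifit1 ranged from 20.2 to 52.9 CPM with a median of 34.9 CPM in the 6 clone 48 libraries, and from 38.0 to 95.4 CPM with a median of 62.8 CPM in the 6 clone 66 libraries. The groups overlapped, and the log2 fold change was 0.88 (SE 0.250, adjusted p = 0.00984). Bst2 ranged from 15.8 to 45.3 CPM in clone 48 and from 9.28 to 23.1 CPM in clone 66 (-0.58, SE 0.198, adjusted p = 0.0315). Because WT and SA libraries of the same number deviated together, the libraries of a clone are not fully independent, and with same-numbered libraries summed neither call held although the estimates were close to those above (0.87, adjusted p = 0.0696 for Ifit1 and -0.60, adjusted p = 0.165 for Bst2). The call for Ifit1 was lost without clone 48 replicate 3 (0.61, adjusted p = 0.0567) or without clone 66 replicate 1 (0.56, adjusted p = 0.138), and that for Bst2 without clone 48 replicate 2 (-0.21, adjusted p = 0.537), without clone 66 replicate 1 (-0.59, adjusted p = 0.0845) or without clone 66 replicate 3 (-0.34, adjusted p = 0.306).

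Rsad2 was the member whose clones stood furthest apart, although it did not pass the filter. At day 0 it had 99 counts over the 6 clone 66 libraries and 4 counts over the 6 clone 48 libraries. Clone 66 ranged from 0.432 to 1.15 CPM with a median of 0.778 CPM, clone 48 from 0 to 0.0988 CPM, and the groups did not overlap, a separation whose share over all genes is not given. The ratio of the summed levels was 20 (7.56 to 74.7, exact 95% interval for counting error only), and in the fit without a filter the log2 fold change was 4.24 (SE 0.573, adjusted p = 1.32e-08). At day 2 clone 48 had 0 counts in 6 libraries, which allows up to 0.0318 CPM (3 counts over the group), and clone 66 had 5 counts. At day 6 the sums were 1 count in clone 48 and 4 in clone 66.

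No tested member was called between clones at day 2, against 14.5% of genes higher and 15.5% lower in clone 66. Irf7 alone had an unadjusted p below 0.05, with 4.94 to 7.25 CPM in clone 48 and 3.93 to 4.85 CPM in clone 66, groups that did not overlap (-0.39, SE 0.183, adjusted p = 0.114). DESeq2 called 0 members at day 2. At day 6 both Ifit1 and Oasl2 were lower in clone 66, 2 of 8 members against 12.8% of genes lower and 13.4% higher. Ifit1 ranged from 1.05 to 3.69 CPM with a median of 2.16 CPM in clone 48, and from 0.713 to 1.11 CPM with a median of 0.823 CPM in clone 66, so that only the lowest clone 48 library reached the clone 66 range (-1.34, SE 0.331, adjusted p = 0.0027). Oasl2 ranged from 0.291 to 1.32 CPM in clone 48 and from 0.157 to 0.434 CPM in clone 66 (-1.25, SE 0.399, adjusted p = 0.0195). With same-numbered libraries summed, Ifit1 remained called (-1.36, adjusted p = 0.0168) and Oasl2 was not (-1.23, adjusted p = 0.0725). The Oasl2 call was also lost without clone 48 replicate 1 (-1.16, adjusted p = 0.0852), without clone 48 replicate 3 (-0.85, adjusted p = 0.134) or without clone 66 replicate 2 (-0.95, adjusted p = 0.125). Bst2 ranged from 20.2 to 27.4 CPM in clone 48 and from 17.3 to 20.2 CPM in clone 66, groups that nearly touched without overlap, and it did not pass the test (-0.31, SE 0.198, adjusted p = 0.276). The share of all genes whose clones do not overlap is not given. This separation, like that of Irf7 at day 2, is therefore not read as particular to the members. With scaling by library size alone the split of all calls at day 6 went from 2243 higher and 2139 lower to 1801 higher and 2589 lower, with the same 2 members called.

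Ifit1 was thus higher in clone 66 before induction and lower at day 6, and the difference itself was tested as the interaction of clone and time. From day 0 to day 6 the fall of Ifit1 was deeper in clone 66 by 2.22 on the log2 scale (SE 0.414, adjusted p = 0.00116), where it reached 1.33% of its day 0 level (1.08 to 1.62%) against 6.22% in clone 48 (5.41 to 7.11%). The fall of Oasl2 was deeper in clone 66 by 1.78 (SE 0.468, adjusted p = 0.0255), to 3.90% of day 0 (2.72 to 5.44%) against 13.4% in clone 48 (10.4 to 17.1%). At day 6 Oasl2 had 36 counts over the 6 clone 66 libraries and 75 over the 6 clone 48 libraries. The latter include SA replicate 3, which stood apart at 1.32 CPM, and Oasl2 passed the filter on low counts mainly through day 0. Ifit1 and Oasl2 make 2 of 8 members lower, against 1.75% of all tested genes lower and 2.10% higher for this interaction. The interaction of Ifit1 passed the threshold in every alternative fit, with log2 values from -2.42 to -1.95, and with same-numbered libraries summed its adjusted p was 0.0264. That of Oasl2 was lost with the libraries summed (-1.76, adjusted p = 0.187) and when clone 48 replicate 1 (-1.71, adjusted p = 0.132), clone 48 replicate 3 (-1.14, adjusted p = 0.223), clone 66 replicate 1 (-1.87, adjusted p = 0.0899) or clone 66 replicate 2 (-1.29, adjusted p = 0.227) was left out. No member was called for clone by time from day 0 to day 2 (3.61% of genes higher and 3.23% lower, 0 members at an unadjusted p below 0.05) or from day 2 to day 6 (3.15% higher and 3.03% lower, 1 member at an unadjusted p below 0.05), and DESeq2 called 0 in both. Over all genes, the interaction from day 0 to day 6 was called in 644 genes, in 1369 with the replicate number as a block and in 154 with same-numbered libraries summed. With scaling by library size alone its split went from 352 higher and 292 lower to 252 higher and 330 lower, with the same 2 members called.

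**Figure D5:**
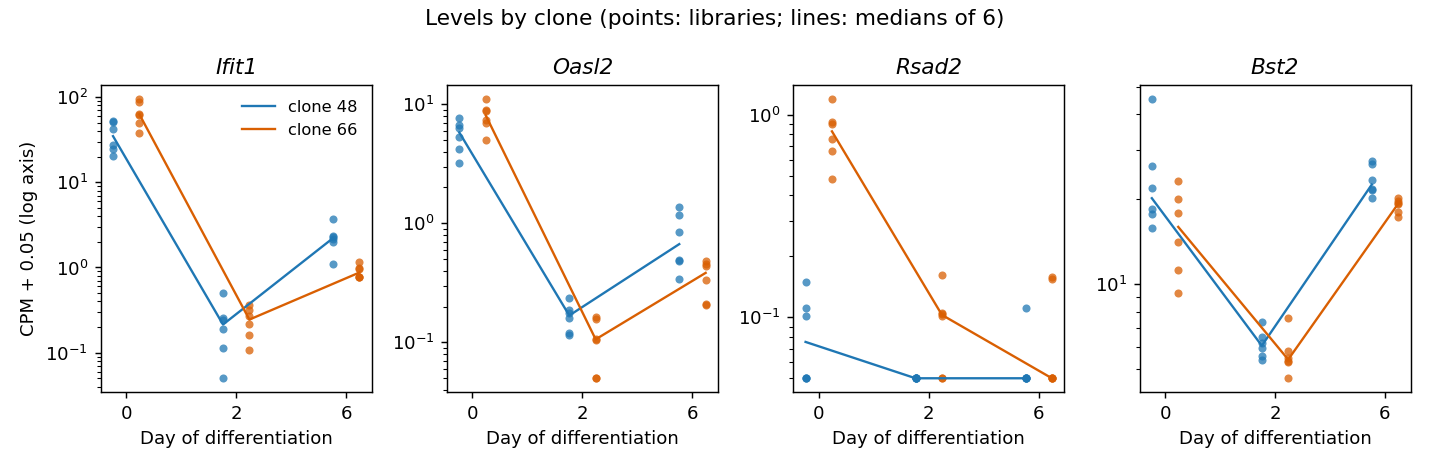
Levels of Ifit1, Oasl2, Rsad2 and Bst2 in clone 48 (blue) and clone 66 (orange) by day (CPM plus 0.05 on a log axis, with its own scale in each panel). Points are libraries and lines join medians of 6 libraries. The clone 66 line of Ifit1 starts above that of clone 48 (62.8 against 34.9 CPM) and ends below it (0.823 against 2.16 CPM), and Rsad2 stands at a median of 0.778 CPM in clone 66 at day 0.

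In the pathway list, 22 of 95 genes were higher and 21 lower in clone 66 at day 0, against 12.6 and 11.1% of all tested genes. At day 2, 13 were higher and 24 lower (14.5 and 15.5% of all genes), and at day 6, 11 were higher and 15 lower (13.4 and 12.8% of all genes), where the shares of the list were near those of all genes. Among the ISG15 enzymes, Herc6, the ligase, was higher in clone 66 on all 3 days, by 1.91, 2.95 and 2.14 on the log2 scale, while Usp18 was lower at day 2 (-1.84) and day 6 (-1.71). Of the antiviral effectors, Parp12 was lower in clone 66 on all days (-1.62, -2.53 and -1.76), and of the relatives of members Oasl1 (1.75), Ifit1bl1 (0.99) and Ifit3b (0.94) were higher in clone 66 at day 0. After day 0, Oasl1 did not exceed 7 counts in a library and Ifit1bl1 did not exceed 4. Both passed the filter on low counts through day 0, so their values there are not independent of it. Ifit1bl1 and Ifit3b were named after their values were seen, and the value of Ifit1bl2 is not given, so these relatives are not read as support for the difference in Ifit1. In antigen presentation, Psmb9 was lower in clone 66 on all 3 days (-2.13 at day 2 and -1.06 at day 6) and Tap1, a peptide transporter subunit, too (-0.73, -2.25 and -0.77). The chemokine Ccl5 was higher in clone 66 at day 0 by 2.66, from 0.605 CPM in the mean of clone 48 to 3.92 CPM in that of clone 66. In no genotype comparison was a gene of the list called, with 0 of 95 at each day.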

How the data were processed

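RNA was sequenced from 36 cultures with a stranded total RNA kit. Per the labels and methods, the authors aligned reads with STAR (version 2.7.0d) and counted read pairs per GENCODE M21 gene with featureCounts (version 1.6.2), without strand and without pairs that mapped to several places. The deposited values are these raw counts, 55536 genes in each library.

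Groups came from the sample labels. Genes with enough counts by filterByExpr (minimum count 10) were tested with edgeR 4.0.16 in R 4.3.3, by its quasi-likelihood test with TMM scaling. The model had a term for each genotype and day plus clone, and clone comparisons used a term for each clone, genotype and day. P-values were adjusted by Benjamini-Hochberg over 16723 genes, with a threshold of 0.05. CPM are counts per 1000000 of the library's total over the genes that passed the filter, scaled by its TMM factor. RPKM are CPM per kilobase of exon. Exact 95% intervals and limits for 0 counts cover counting error only. The fit was tested on simulated counts. All members are named. Of the pathway genes, those named are the 3 with the largest called change per role and comparison, plus Irf9, Ifnar1, Ifnar2, Ifnb1, Usp18 and Cxcl10, and a gene so named may be followed in other comparisons. Ifit1bl1 and Ifit3b in the clone comparison were added after their values were seen. Some items are not reported here. The members, lists and tests were chosen with earlier results of these data known.

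WT and SA libraries with the same replicate number in a clone and day deviated together (18 pairs, r from 0.176 to 0.930 over 9381 genes), so the numbers pair the samples. The alternatives were this replicate number as a block, same-numbered libraries summed, other scalings (RLE factors, library size alone), other filters, DESeq2 1.42.0, the newer edgeR dispersion method, fits of each clone or of the 2 days in question only, and fits that left out a replicate. Promoter sequences came from RefSeq (GRCm38.p6).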

Additional observations from a re-analysis of the deposited data

Results flagged for a closer look

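In 3 of 54 groups of 6 libraries (each gene in each genotype and day) 1 library stood apart by Dixon's 95% value for 6 libraries, and chance flags about 1 group in 20. Stat2 in WT at day 2 was at 12.5 CPM in clone 48 replicate 3, with a gap to its neighbour of 0.627 of the whole range of the group. Oasl2 in SA at day 6 was at 1.32 CPM in clone 48 replicate 3, with a gap of 0.752 of the range. Rsad2 in WT at day 6 was at 0.107 CPM in clone 66 replicate 2, from 2 counts, while the other 5 libraries were at 0.

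The change from day 0 to day 6 differed between clones in 2 genes by the interaction of clone and time (edgeR quasi-likelihood test). It was -2.22 on the log2 scale for Ifit1 (adjusted p = 0.00116) and -1.781 for Oasl2 (adjusted p = 0.0255), with the deeper fall in clone 66. Clone and library pool cannot be told apart here.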

How the results depend on the processing

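Of 2433 values for single genes under the alternatives, 2271 kept their direction and side of the threshold, 22 lost and 5 gained a call, and 135 turned in sign. None of these 135 was called in either fit, and for 133 of them the reported value lay within 1 standard error of 0. Of the counts of called members, 584 stayed within 1.5 times and 28 moved. Over all alternatives, 8 to 9 members were lower from day 0 to day 2 (Rsad2 entered where it was tested), 7 to 8 higher from day 2 to day 6 (Oasl2 was not tested where it was 7) and 6 to 8 lower from day 0 to day 6. For day 0 to day 6 the count of higher members was 0 to 1 over the fits that left out a replicate, with the 1 (Bst2) arising without clone 48 replicate 2. Between clones at day 0, the count of members higher in clone 66 was 0 with same-numbered libraries summed, 2 without a filter and 2 for the compared days alone (Rsad2 entered), 2 without the library of lowest total, and 0 to 3 when a replicate was left out. The count lower was 0 with libraries summed, 2 without a filter (Stat2 entered), 0 for the compared days alone, and 0 to 2 when a replicate was left out. At day 2 the count lower was 1 (Irf7) for day 2 alone. At day 6 the count lower was 1 (Ifit1) with libraries summed and 1 for the compared days alone, and 1 to 2 with a replicate left out. The count lower for clone by time from day 0 to day 6 moved in the same way, to 1 with libraries summed, 1 for the compared days alone, and 1 to 2 with a replicate left out. The other 2 were SA against WT for Bst2 at day 0 in clone 66 alone (-0.07165) and clone 66 against clone 48 for Ifit3 at day 0 without clone 66 replicate 1 (-0.01111, against 0.813 without clone 66 replicate 3). Between days, Bst2 alone turned in sign, from day 0 to day 6 (-0.09 with library size alone, -0.03 without clone 66 replicate 3 and -0.01 in clone 48 alone). The cause was not tested. With the replicate block the log2 fold change of Ifit1 from day 0 to day 2 was -8.04 and its clone by time value from day 0 to day 6 was -2.23, and the block changed no member's call. Comparisons between clones at a day have no blocked fit. Depth limits Rsad2 at every day and Ifit1, Ifit3 and Oasl2 at day 2, where no library held more than 7 counts of them.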

Other observations

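Over the 36 libraries, the tested genes whose log2 CPM followed the mean standardized level of the members most closely were Arhgef10l (Pearson r 0.984), Apol9a (0.983), Ifitm3 (0.982), Fam102b (0.978) and Spsb2 (0.977). Ifitm3 encodes an antiviral membrane protein and is in the pathway list. These libraries share the 3 days, along which much of the transcriptome moves. With the group means (clone by genotype by day) removed, the genes closest to the members were Plekhn1 (0.828), Amigo1 (0.817) and Gm29264 (0.806), so the order is different once the days are taken out.

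The members did not deviate as one set around their group means. Irf7 and Bst2 deviated together over the 36 libraries (r 0.839), Isg15 and Stat2 did too (r 0.735), and Ifit1 and Ifit3 less closely (r 0.565), whereas Ifit2 went against Isg15 (r -0.642) and Stat2 (r -0.532). These values describe shared replicate deviations, since same-numbered WT and SA libraries are not independent, and depth differs between libraries.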
